A study of Urocitellus parryii with 3 samples.

Results

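The imprinted Dlk1-Dio3 region of mouse chromosome 12 carries a dense cluster of miRNA genes, and 72 of the 567 mouse miRNA entries on the array (12.7%) were probes for it. They were chosen by position, as mouse entries whose listed targets lie in the imprinted miRNA interval of chromosome 12 (mm9 build). Both arms of a hairpin were taken where both were present. 1 further entry in the interval was left out by name and is not reported here, so the cluster below stands for these 72 entries. The first target, of miR-770-5p, starts at 110801929 and the last, of miR-410, ends at 110981994, a span of 180.1 kb. The arrays were hybridised with RNA from livers of Urocitellus parryii, the arctic ground squirrel, which hibernates. The 3 groups were early arousal, when the animal warms up from torpor, late torpor (spelled "late topor" in the labels) and post-reproduction. Each group was 1 pool, mixed in equal amounts from animals of that stage, on 1 array, and all pools were unmanipulated liver as far as the labels say. Age, sex and the number of pooled animals are not given in the sources used here. Since there is 1 array per stage, a stage cannot be told apart from its pool or its place on the slide, and no test across arrays was possible.

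In mammals the Dlk1-Dio3 region is expressed according to parental origin. The paternal copy expresses the protein-coding genes Dlk1, a transmembrane regulator of differentiation and growth, Rtl1, a gene derived from a retrotransposon and needed in the placenta, and Dio3, the deiodinase that inactivates thyroid hormone. The maternal copy expresses the non-coding transcripts Meg3, Rian, Mirg and the transcript antisense to Rtl1, from which the miRNAs are processed. These miRNAs are known for high levels in the embryo, placenta and brain, and for low levels in healthy adult liver. In RefSeq's arctic ground squirrel assembly (mUroPar1.hap1), Dlk1, Rtl1 and Dio3 lie on the same chromosome in that order, with 19 annotated genes between Dlk1 and Dio3. Among them 13 snoRNA genes and 2 lncRNA genes lie between Rtl1 and Dio3. The array's probes were made for mouse miRNAs, and how well they match the squirrel's miRNAs was not tested.

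An array gives an intensity per spot, the deposited brightness after a fitted background trend was subtracted, so that an unlit spot reads near 0 and may read below it. Intensities printed here are means over spots of 1 probe, unscaled between arrays, and their SD is the spread over those spots and not over animals. Of 1439 spots printed per array for the 72 entries, 1385 (early arousal), 1400 (late torpor) and 1392 (post-reproduction) were kept after outlier spots were left out. None was saturated. The hepatocyte markers miR-122, miR-192, miR-194 and miR-148a were detected on every array, and the brightest probe of miR-122 reached 49900 to 59400 intensity units. Of 7 neural markers only miR-128 was detected, at 37.1 (early arousal), 53.6 (late torpor) and 37.4 (post-reproduction), and miR-124 read below 0 on each array. The neural markers' brightest probes summed to between 41.0 and 57.0.

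Nearly all of the cluster was undetected in these livers. An entry was called detected when over 50% of the kept spots of at least 1 of its probes carried the scanner program's mark for being well above background. By this rule early arousal had 3 of the 72 entries detected (4.17%), late torpor 1 (1.39%) and post-reproduction 1 (1.39%). Over all mouse entries the shares were 26.8% (152 of 567), 27.9% (158) and 25.2% (143) in the same order. The entry detected on every array was miR-127, which is processed from the transcript antisense to Rtl1. The other 2, miR-770-3p and miR-540-3p, were detected in early arousal only. The remaining 69 entries were detected on no array. The number depends on the rule: 0 entries on each array passed when over 50% of an entry's probes had to be detected, against 19.6%, 21.2% and 19.9% of all mouse entries. With the scanner program's own call per entry, early arousal had 5, late torpor 4 and post-reproduction 2, against 31.7%, 32.6% and 29.3% of all mouse entries.

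**Figure D1:**
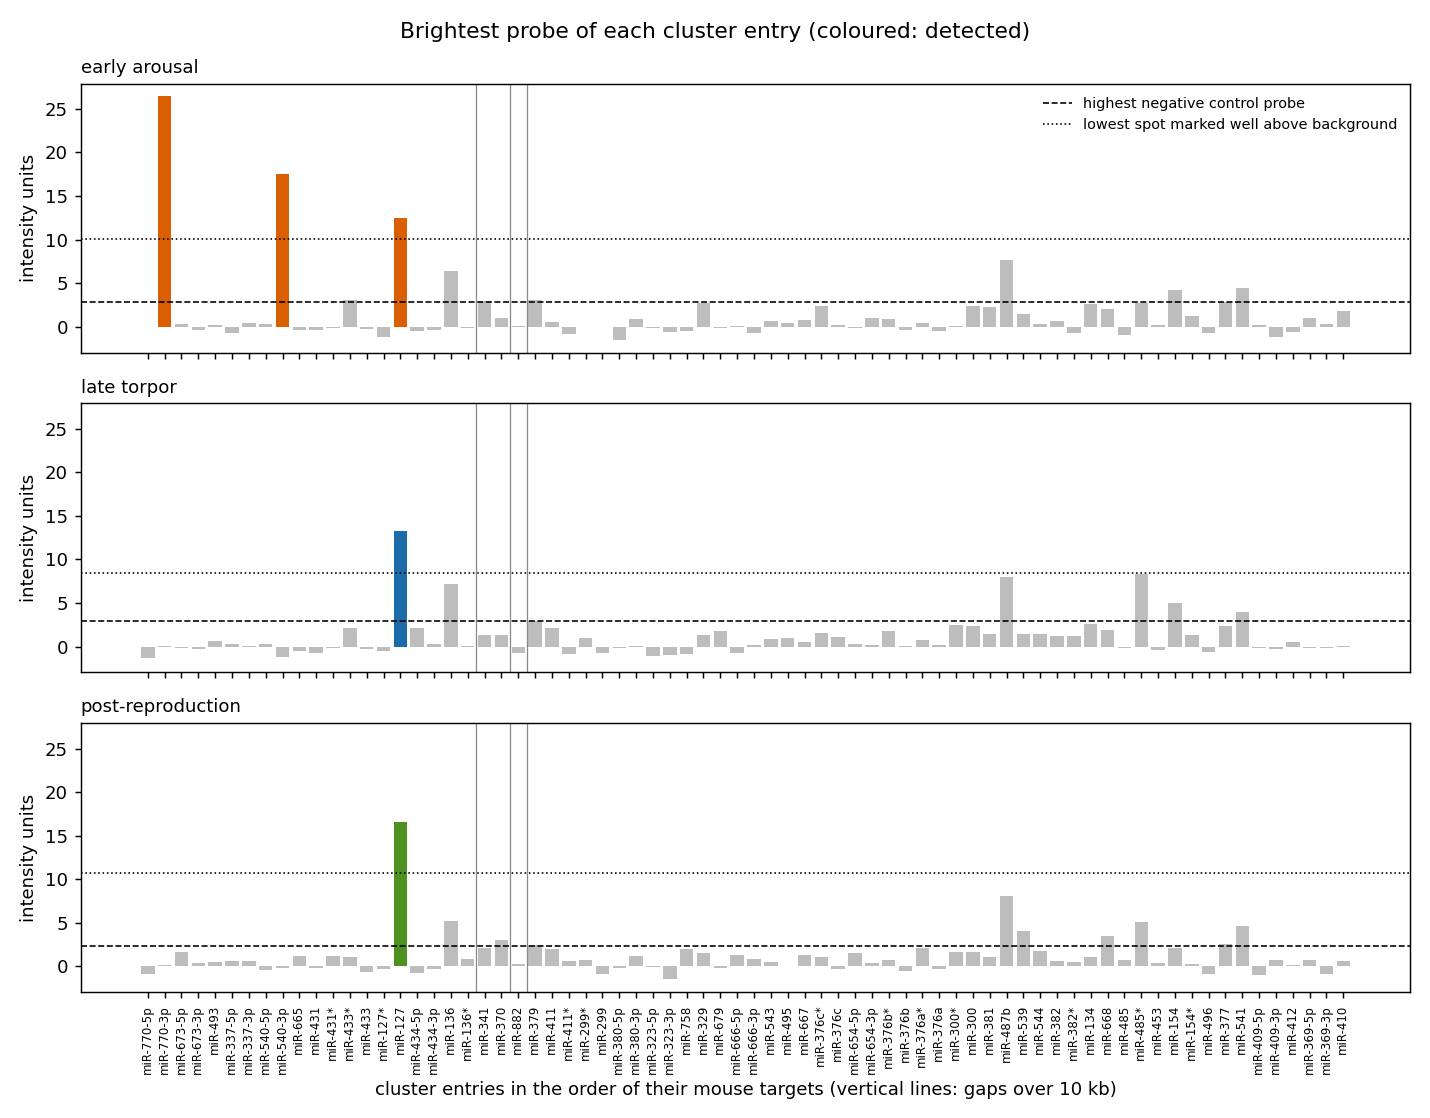
Bars give the mean intensity of the brightest probe of each of the 72 entries, in the order of their mouse targets, with 1 panel per array and coloured bars for detected entries. Coloured bars stand for miR-770-3p, miR-540-3p and miR-127 in early arousal (26.5, 17.5 and 12.5) and for miR-127 alone in late torpor (13.3) and post-reproduction (16.6), and no bar right of the last vertical line is coloured.

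The cluster's probes were set against the array's negative control spots, which carry no miRNA probe. The median of the 210 cluster probes was -0.386 (early arousal), -0.275 (late torpor) and -0.202 intensity units (post-reproduction). The kept negative control spots had medians of 1.30, 1.65 and 1.14 with SDs of 1.86, 2.06 and 2.20. The typical cluster probe thus read 1.68, 1.92 and 1.35 units under the typical negative control spot. Compared as probe means, 155, 170 and 149 of the 210 cluster probes lay below the lowest of the 7 negative control probes, which read 0.557, 1.05 and 0.481. The median of all 1672 mouse probes, at 0.155, 0.207 and 0.3, was also below that probe, so such low readings are not particular to the cluster. Probes of the 401 mouse entries detected on no array had medians of -0.431, -0.296 and -0.231, within 0.05 of the cluster's. That set holds the cluster's own 69 undetected entries, so the closeness is in part the cluster set against itself. At or below 0 read 61.0%, 59.0% and 56.2% of the cluster probes, while the median of all mouse probes was above 0.

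Fewer cluster probes stood above every negative control probe than below every one. The negative control probes reached at most 2.90 (early arousal), 2.91 (late torpor) and 2.32 (post-reproduction). Above that level were 16, 12 and 16 cluster probes (7.62%, 5.71% and 7.62%), belonging to 10, 7 and 10 entries. Of all mouse probes 26.7%, 27.0% and 28.5% were above it, and of all mouse entries 40.2%, 39.9% and 42.9% had such a probe. On all 3 arrays the level was passed by 7 cluster probes of 5 entries, namely miR-127, miR-136, miR-379, miR-487b and miR-541. Another 5 probes, of miR-154 and miR-485*, passed it on 2 arrays, and 13 probes of 9 entries on 1 array.

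**Figure D2:**
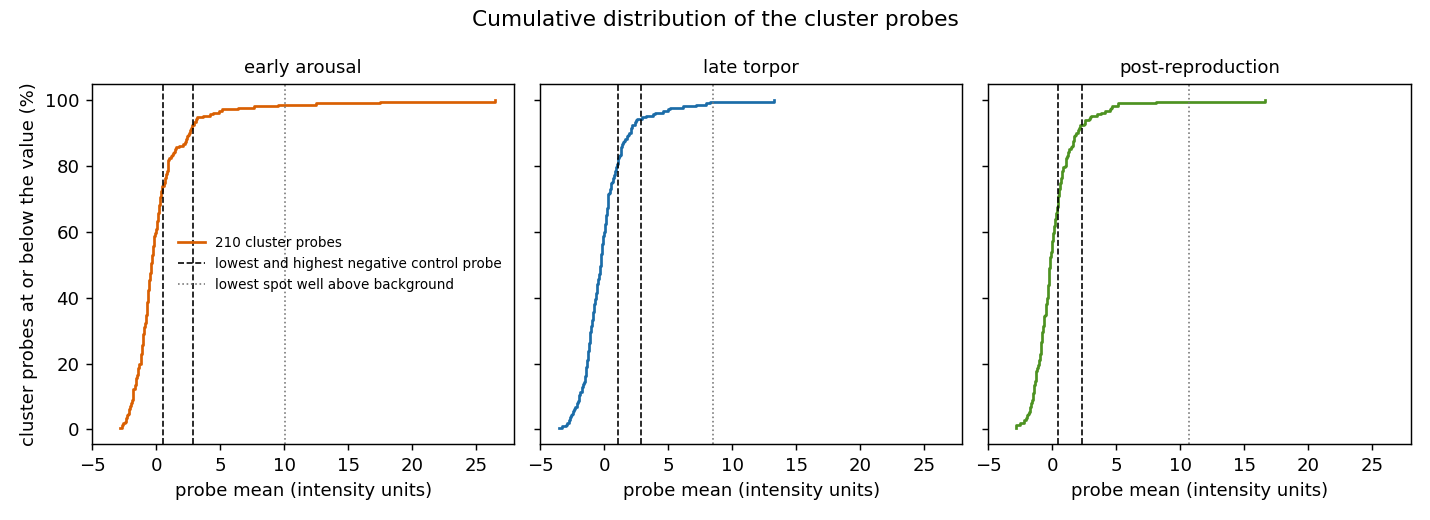
Each curve gives the percentage of the 210 cluster probes with a mean intensity at or below the value on the horizontal axis, with 1 panel per array. The curves climb steeply around 0, at medians of -0.386, -0.275 and -0.202, and only a thin tail passes the highest negative control probe at 2.90, 2.91 and 2.32.

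The marks were also counted spot by spot. In early arousal 22 of the 1385 kept cluster spots (1.59%) were marked well above background, in late torpor 21 (1.5%) and in post-reproduction 11 (0.790%), against 22.8%, 24.4% and 22.5% of the spots of all mouse entries. Within the 69 entries detected on no array the marked spots numbered 1 of 1327, 13 of 1341 and 2 of 1334. These entries were chosen for lacking marks by the rule above, so low numbers there are partly fixed by the choice. As a background measured the same way, 0 of 645, 1 of 659 and 0 of 648 kept negative control spots were marked. With the spots left out as outliers included, 14, 12 and 17 of 672 were marked, the brightest at 57.3, 86.0 and 176, so this background depends on that step. A mark alone does not name the RNA bound: the entry for mghv-miR-M1-2, a miRNA of a mouse herpesvirus, was detected on every array, with its brightest probe at 22.2 (early arousal), 26.5 (late torpor) and 26.6 (post-reproduction).

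miR-127 was the only entry of the cluster that could be compared between all stages. It is known to be transcribed opposite to Rtl1 and to act against the Rtl1 message. Its target lies at 110831102 to 110831119. The probe with an 18-base target read 12.5 ± 1.95 in early arousal (SD, n = 9 spots), 13.3 ± 2.21 in late torpor (SD, n = 9 spots) and 16.6 ± 1.41 in post-reproduction (SD, n = 8 spots). Single spots ran from 10.3 to 16.5, from 8.48 to 15.4 and from 14.5 to 19.4, so post-reproduction was the highest on this scale and the spots of all 3 arrays overlapped. The marks covered 9 of 9, 8 of 9 and 8 of 8 spots. The second probe, with a 17-base target, was detected on no array and read 2.97, 3.26 and 4.58, in the same order of stages. The opposite arm, miR-127*, was among the 3 dimmest undetected entries, with means over its 4 probes of -2.05, -1.66 and -0.863.

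For the comparison of stages, log2 intensities were scaled by subtracting each array's own 75th percentile, taken across the 250 probes that every array detected. It stood at 350.4 (early arousal), 349.1 (late torpor) and 398.3 intensity units (post-reproduction). On this scale miR-127 stood at -4.83, -4.73 and -4.59. Counted from the dimmest of the 135 mouse miRNAs with a probe detected on all arrays, it ranked 6, 3 and 10. A difference had to reach 1 (2-fold), exceed 2 times its standard error (SE) from spots and have 1 sign in every measured probe to pass the rule of size. Late torpor differed from post-reproduction by -0.15 for miR-127 (SE 0.10, interval -0.34 to 0.05), that is, 1.11-fold higher in post-reproduction. Early arousal differed from post-reproduction by -0.24 (SE 0.083, interval -0.40 to -0.077), or 1.18-fold higher in post-reproduction. Early arousal differed from late torpor by -0.094 (SE 0.12, interval -0.32 to 0.13). The intervals, at 95%, cover the spread of spots only.

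No difference of miR-127 passed the rule, and the size of each varied with the processing. Of the 135 mouse miRNAs with a probe detected on all arrays, 2.22% (3) passed between late torpor and post-reproduction, 3.70% (5) between early arousal and post-reproduction and 2.96% (4) between early arousal and late torpor. Their median log2 differences were 0.13, 0.062 and -0.094. After the normexp background correction miR-127 differed by 0.097 between late torpor and post-reproduction and by 0.053 between early arousal and post-reproduction, with the sign turned. The other alternatives for which it had a value kept both signs. They ran from -0.47 (total gene signal) to -0.021 (outlier spots kept) in the first comparison and from -0.61 (scaling over all probes) to -0.12 (outlier spots kept) in the second. Between early arousal and late torpor miR-127 equalled the median of all 135 miRNAs. Scaling by the median moved both to 0.058, so that change of sign is not one of miR-127 against the rest.

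miR-770-3p was the brightest cluster entry in early arousal and unlit on the other arrays. Its hairpin is known to lie within Meg3, the maternally expressed non-coding RNA, and the target spans 110801963 to 110801975. The probe with a 12-base target read 26.5 ± 1.44 in early arousal (SD, n = 5 spots, all marked), -1.26 in late torpor and 0.0176 in post-reproduction. Its early arousal spots lay between 25.1 and 28.4, above every spot of the entry on the other arrays. The probe with a 13-base target read 9.53, -0.505 and 0.149, with 2 of 5 spots marked in early arousal. Those with 11-base and 10-base targets read 3.19 and 4.91 in early arousal and at most 0.20 elsewhere. All 4 probes were thus above the highest negative control probe in early arousal, and none was on the other arrays. The opposite arm, miR-770-5p, was the dimmest of the cluster by its mean over the 3 arrays, with means over its probes of -0.965, -2.49 and -1.75.

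miR-540-3p had the same pattern of stages, with fewer of its probes above the highest negative control probe. Its target lies at 110824337 to 110824351, in the same stretch between miR-770 and miR-127. The probe with a 15-base target read 17.5 ± 1.84 in early arousal (SD, n = 5 spots, all marked), -1.16 in late torpor and -1.95 in post-reproduction. Early arousal spots ran from 14.7 to 19.8 and did not overlap those of the other arrays. The probe with a 14-base target read 5.13, -1.91 and -0.33. The remaining probes, with 13-base and 12-base targets, read -0.467 and 0.798 in early arousal, under the highest negative control probe. The 4 probes therefore disagreed, and the call rests on 1 of them. The call of miR-770-3p likewise rests on 1 detected probe, the one with the 12-base target. miR-540-5p, the opposite arm, was detected on no array.

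**Figure D3:**
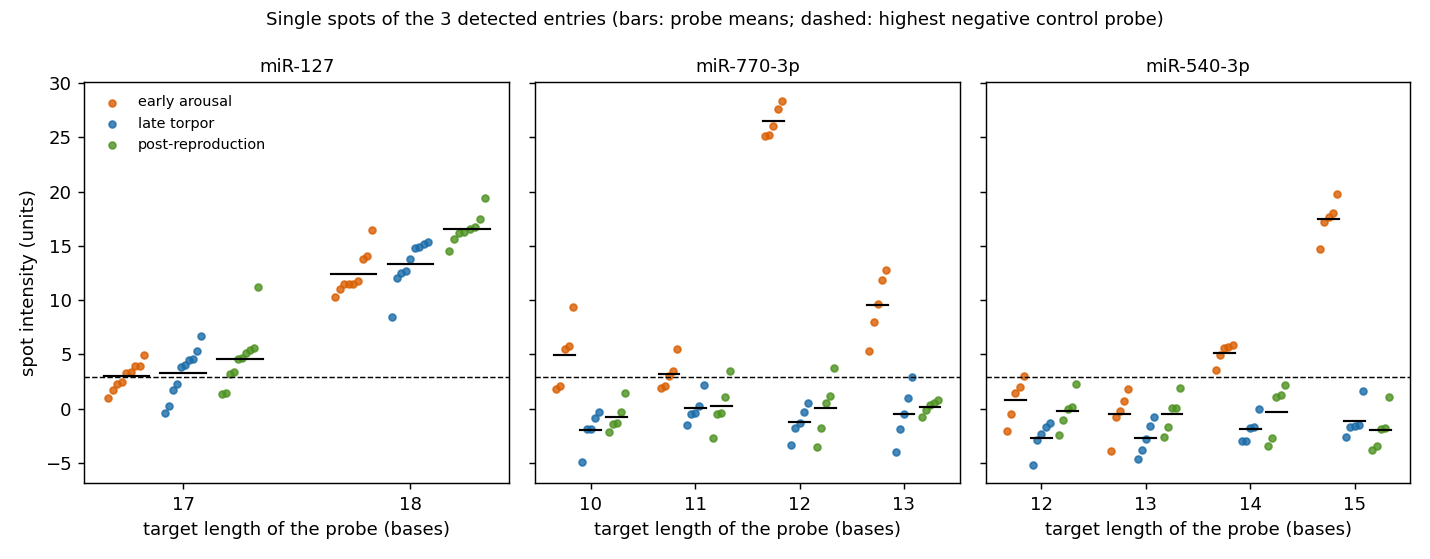
Each point is the intensity of 1 kept spot of miR-127, miR-770-3p or miR-540-3p, grouped by the target length of its probe and coloured by array, with bars at probe means and a dashed line at the highest negative control probe of the 3 arrays (2.91). The 18-base probe of miR-127 is lit on all arrays with overlapping spots, whereas the 12-base and 13-base probes of miR-770-3p and the 15-base and 14-base probes of miR-540-3p are lit in early arousal and scatter around 0 elsewhere.

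Since these entries were unlit on the dimmer arrays, only lower bounds can be given. The bound sets the brightest probe's scaled log2 value against the higher of its own dim value and the dimmest spot marked well above background on the other array, at 8.49 (late torpor) or 10.7 units (post-reproduction). miR-770-3p was at least 3.1-fold higher in early arousal than in late torpor and at least 2.81-fold higher than in post-reproduction. With the normexp correction these bounds fell to log2 values of 0.46 and 0.53, from 1.63 and 1.49. miR-540-3p was at least 2.04-fold higher in early arousal than in late torpor and at least 1.85-fold higher than in post-reproduction. Its first bound, 1.03 in log2, fell to 0.78 with scaling over all probes and to 0.30 with normexp. Its second, 0.89, fell to 0.52 and 0.37 in the same order, and to 0.62 when every spot had to be marked. Among all mouse entries 6 were detected in early arousal only, and these 2 are 33.3% of them, beside the cluster's 12.7% of all entries. The rest, miR-135a*, miR-671-3p, miR-671-5p and miR-874, lie outside the cluster, and 6 entries are too few to read a share from. Skeletal muscle markers also moved between arrays: early arousal had 2 of 4 detected, late torpor 3 and post-reproduction 0, with summed brightest probes of 31.6, 54.9 and 24.3. The part of these markers in the early arousal calls was not tested.

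By the rule of over 50% of spots, the 3 detected entries lay in the same stretch of the cluster. Cut at gaps over 10000 bases between targets, the entries fell into 4 blocks. The first, from miR-770-5p to miR-136*, held 20 entries over 31.7 kb (110801929 to 110833597) and all 3 detected ones. In late torpor and post-reproduction only miR-127 among them was detected, and the other 2 calls each rest on 1 probe in early arousal. The second held miR-341 and miR-370 (110849772 to 110856536) and the third miR-882 alone (110920419 to 110920438). The last ran from miR-379 to miR-410 over 34.7 kb (110947280 to 110981994) and had 0 of 49 entries detected by that rule. This depends on the rule, since the scanner program's own call named miR-487b of this block present on every array and miR-485* in late torpor. That block is known as the Mirg or miR-379/miR-410 cluster and includes the miR-376, miR-154 and miR-300 relatives. By textbook host transcript, 1 of 2 Meg3 entries, 1 of 10 entries antisense to Rtl1, 0 of 1 in Rian, 0 of 49 in Mirg and 1 of 10 with no host assigned were ever detected by the rule of over 50% of spots. Of all 567 mouse entries, 401 were detected on no array by that rule.

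Both arms of a hairpin were often on the array. The 72 entries came from 48 hairpins, of which 24 had both arms on the array, and 3 of these had a detected arm. By the rule of over 50% of spots, 0 hairpins had both arms detected. Of the 13 entries with a star in the name, the sign for the arm held to be less abundant, 0 were detected by the rule of over 50% of spots, nor was any of the 11 named 5p, although the program's own call named miR-485* present in late torpor. Of 11 named 3p, 2 were detected, both in early arousal. The other 37, whose names give no arm, include miR-127. Over all mouse entries of any name, 26.8% (early arousal), 27.9% (late torpor) and 25.2% (post-reproduction) were detected. Shares by name type were not computed over all mouse entries. With so few cluster entries detected, these counts do not tell a preference for an arm.

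Below the detection level 5 entries were the brightest by their mean over arrays. miR-487b, a Mirg miRNA, averaged 4.99 (early arousal), 5.04 (late torpor) and 5.52 (post-reproduction) over its probes. Its 18-base probe read 7.63, 7.99 and 8.11, its 17-base probe 2.35, 2.08 and 2.93. It thus stayed near the same level on the 3 arrays, and the scanner program's own call named it present on each.

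miR-136, which is encoded antisense to Rtl1 close to miR-127, averaged 4.44, 4.66 and 3.52. Its probe with the 22-base target read 6.39, 7.16 and 5.17 and the one with the 21-base target 2.48, 2.15 and 1.88. Both were lowest in post-reproduction, and the program's call named the entry present in early arousal and late torpor. miR-541 averaged 4.09, 3.89 and 3.61 and miR-154, after which a family of miRNAs of this cluster is named, 3.39, 3.03 and 1.58.

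miR-485* was the undetected entry of the 5 with the widest spread between stages. It averaged 1.93 (early arousal), 6.05 (late torpor) and 4.09 (post-reproduction). Its 16-base probe read 2.65, 8.28 and 5.12, the highest late torpor value of any probe of the undetected entries. The 15-base probe read 1.39, 5.16 and 4.52 and the 14-base probe 0.893, 6.14 and 3.80. All 4 probes, the 13-base one at 2.77, 4.61 and 2.90 included, were highest in late torpor and lowest in early arousal. The probes overlap in target, so they are not independent, and the program's call named the entry present in late torpor only. The erythroid markers miR-144, miR-451 and miR-486, known from red blood cells, were also highest there. Their brightest probes summed to 2510 (early arousal), 4140 (late torpor) and 1990 (post-reproduction), so they were lowest in post-reproduction, unlike miR-485*. The viral entry mghv-miR-M1-8, detected in late torpor only, had the same order of stages as miR-485*. Its brightest probe was highest in late torpor and read 1.98 in early arousal and 5.6 in post-reproduction. The other viral entries had other orders. The part of the erythroid markers in the values of miR-485*, and its likeness to the viral entry, were not tested. At the dim end stood miR-770-5p, miR-127* and miR-299, the last with means of -1.35, -1.74 and -1.53.

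**Figure D4:**
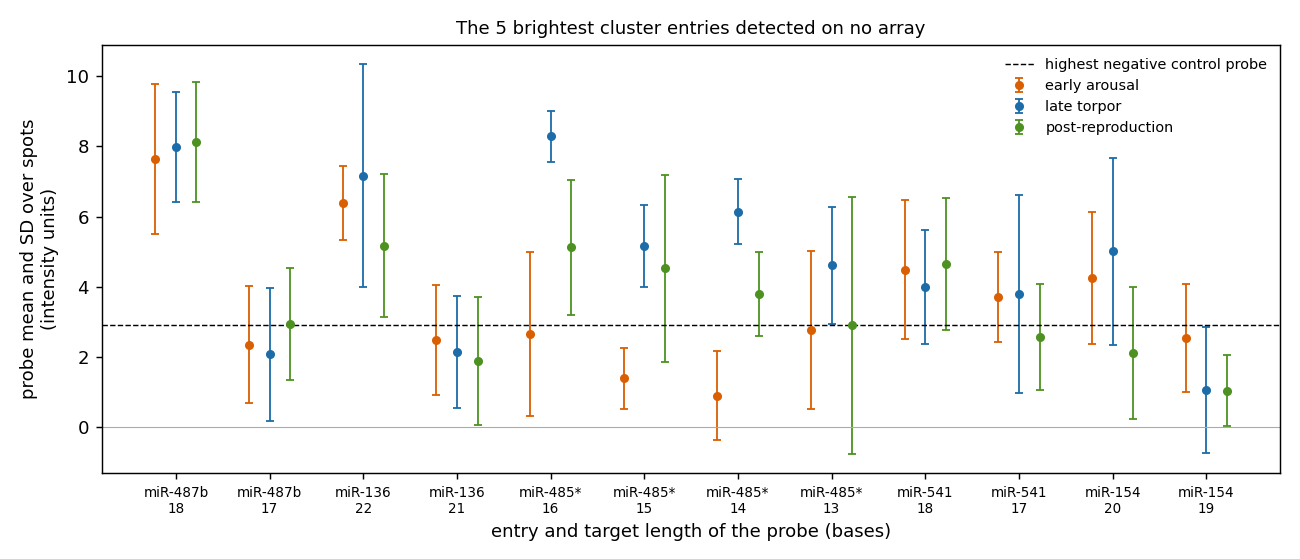
Points are probe means and bars their SD over spots, in intensity units, for the 12 probes of the 5 brightest undetected entries, coloured by array, with a dashed line at the highest negative control probe of the 3 arrays (2.91). The 18-base probe of miR-487b sits at 7.63 to 8.11 on every array, while the 4 probes of miR-485* are highest in late torpor.

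Probes of an entry differed in brightness with the length of their target. Among detected mouse entries with several probes, the probe with the longest target was the brightest in 93.3% (early arousal), 91.0% (late torpor) and 94.3% (post-reproduction). miR-127 and miR-540-3p followed that order. miR-770-3p did not, as its 12-base probe exceeded its 13-base probe. Among the never-detected cluster entries with several probes it held in 39, 37 and 36 of 68.

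Low values nevertheless recurred from array to array. Over the 200 probes of never-detected entries, Pearson's r was 0.71 between late torpor and post-reproduction, 0.69 between early arousal and post-reproduction and 0.75 between early arousal and late torpor, and Spearman's rho was 0.52, 0.54 and 0.65. Over all 210 cluster probes r was 0.78, 0.43 and 0.41, and rho 0.52, 0.51 and 0.57. The lower r of the pairs with early arousal goes with the probes of miR-770-3p and miR-540-3p. These are correlations over probes, which share their design and slide and are not replicates.

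**Figure D5:**
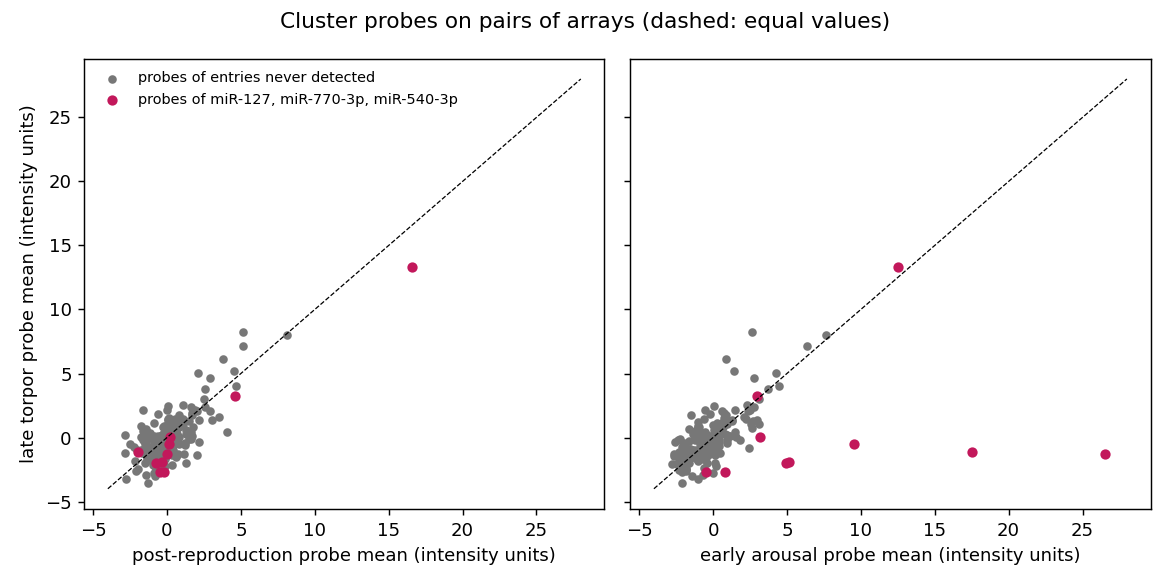
Each point is a cluster probe, with its mean intensity in late torpor on the vertical axis against post-reproduction (left) and early arousal (right), the dashed line marking equal values. Most points crowd around 0, miR-127's 18-base probe lies near the line in both panels, and the points far right in the second panel are miR-770-3p and miR-540-3p probes at 26.5 and 17.5 in early arousal.

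Entries from other imprinted loci were set beside the cluster. Of 15 such entries on the array, early arousal had 3 detected (20.0%), late torpor 4 (26.7%) and post-reproduction 2 (13.3%), higher shares than the cluster's on each array. miR-335-5p, from an intron of Mest, read 22.4, 18.4 and 19.4. miR-483*, from an intron of the growth factor gene Igf2, read 16.6, 16.3 and 23.8. Its opposite arm miR-483 read 30.1 (early arousal), 10.7 (late torpor) and 5.46 (post-reproduction), where it was undetected. Like miR-770-3p and miR-540-3p it was highest in early arousal, but it remained detected in late torpor. Of the 9 chromosome 12 entries outside the interval, 2, 2 and 1 were detected. miR-203, which lies on the Dio3 side of the cluster, read 31.6, 29.1 and 30.3, and miR-680 read 22, 12.6 and 5.90.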

How the data were processed

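Total RNA of pooled livers (100 ng per array) was labelled with Cy3 and hybridised to Agilent mouse miRNA arrays, per the labels' protocols, although a label describes it as RNA of 18 to 30 nt. Per the submitters' processing notes, the reading program was Agilent Feature Extraction, version 9.5.3.1. The deposited intensity of a spot has a fitted spatial trend subtracted and no normalization between arrays, per the file headers. The detection and outlier flags are other deposited values of the same program. The authors' deposited series table equalled the scanner intensity within 0.001 at all 12493 spots of each array, with medians of 1.05, 1.15 and 1.13, so its scale is linear and uncentred. All columns were mapped.

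Spots flagged as outliers were left out. For scaled log2 values, computed here, spots at or below 0 were set to the dimmest spot marked well above background. 1 entry in the interval was left out and is not reported here. Named in full were entries ever detected and their opposite arms, and of the rest the 5 brightest and 3 dimmest. Members and lists were chosen with earlier results of these data known. Of the other imprinted entries listed, 15 of 16 were on the array. Of the further marker lists, 3 of 3 erythroid and 2 of 2 endothelial entries were detected on each array. Values were computed in Python 3.11.15 and R 4.3.3 with limma 3.58.1 (normexp, offset 50), and the scripts were tested on simulated data. Alternatives covered detection rules, outliers, scaling, background and probe summary.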

Additional observations from a re-analysis of the deposited data

How the results depend on the processing

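The number of detected cluster entries moved most. With a probe mean above the highest negative control probe as the rule, it was 10 (early arousal), 7 (late torpor) and 10 (post-reproduction), against 40.2%, 39.9% and 42.9% of all mouse entries. With over 50% of an entry's probes required it was 0, 0 and 0 (mouse entries 19.6%, 21.2% and 19.9%). The scanner program's own call, chosen after seeing the data, gave 5, 4 and 2 (31.7%, 32.6% and 29.3%). At least 1 marked spot gave 10 in late torpor (38.4% of mouse entries) and 3 in post-reproduction (31.6%), and every spot marked gave 0 in late torpor (25.9%). With the brightest probe of each entry, the median over the cluster minus that of the negative control spots was -0.43 in post-reproduction. For miR-127, normexp turned the sign against post-reproduction (0.097 for late torpor, 0.053 for early arousal), with the other alternatives from -0.47 to -0.021 and from -0.61 to -0.12. Scaling by the median moved early arousal against late torpor to 0.058, as it did the median of all 135 measured miRNAs. Normexp was the alternative that lowered both bounds of miR-770-3p under 1 in log2 (0.46 and 0.53), and scaling over all probes (0.78) or normexp (0.30) did so for miR-540-3p against late torpor. Its bound against post-reproduction, 0.89, fell to 0.52 and 0.37. The cause was not tested. Scaling over all probes shifted the median over all 135 measured miRNAs from 0.062 to -0.31 between early arousal and post-reproduction. Of the other alternatives' values, 41 for counts, medians and miR-127 and 28 for bounds stayed within the spread or kept their side. With every spot required, miR-127 was not measured. Bounds were not run with quantile normalization or the total gene signal. No paired analysis was possible because each stage had 1 array. The number of arrays limits the precision, and for entries below the detection level the order of stages only describes these spots.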
